A study of Mus musculus with 2 samples.

Results

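Tox and Tox2 encode paralogous nuclear proteins of the TOX family. Both genes were taken by name from the deposited single-cell tables, where they are 2 of 2000 genes. The pair was selected on measured values, the shares of cells with each gene in the libraries, as known from earlier results of these data. Levels between the libraries are therefore a description, without a test. Other family members, Tox3 and Tox4, were not analysed here.

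The study compared T cells of mice given tacrolimus or a monoclonal antibody against IL-2 after haematopoietic cell transplantation. BALB/c recipients, wild type and lethally irradiated, all received spleen and bone marrow cells of wild type C57BL/6 donors. Either agent was given from day 0 to day 6, and spleen cells were taken on day 6 for droplet-based 5′ RNA sequencing. The labels call the profiled cells T cells of the C57BL/6 donors, and the files' genes hold Cd4, Cd8a and Cd8b1 but no Cd3 gene to check this by. Each treatment has 1 library, no library was untreated, and the number of mice is not stated, so treatment and library cannot be told apart.

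TOX proteins carry an HMG box, a DNA-binding fold that recognises DNA structure more than a set sequence. TOX is needed for CD4 lineage development in the thymus. In peripheral T cells its gene is induced by calcineurin and NFAT signalling from the T-cell receptor, and it maintains CD8 T cells under chronic stimulation. TOX2 is known for its part in follicular helper T cells and, with TOX, in exhausted CD8 T cells. Tacrolimus inhibits calcineurin, and IL-2 is a growth factor of activated T cells.

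In mm10 (GENCODE M21) Tox (ENSMUSG00000041272) lies on the minus strand of chromosome 4, from 6686353 to 6991557, and Tox2 (ENSMUSG00000074607) on the plus strand of chromosome 2, from 163203125 to 163324170. Both are protein-coding genes, and the transcript used of each has 9 exons. The coding sequences (1581 bases for Tox and 1518 for Tox2) were identical at 69.2% of aligned bases. The longest run of identical bases in the mRNAs was 20. The most similar coding window of 120 bases, at the start of the region that encodes the HMG box, is shown because it shows both what the paralogs share and where they differ. It spans coding bases 747 to 866 of Tox and 702 to 821 of Tox2, counted from 1 at the start codon and read 5′ to 3′, from GENCODE transcripts, with the 20 differing bases in capitals:
Tox: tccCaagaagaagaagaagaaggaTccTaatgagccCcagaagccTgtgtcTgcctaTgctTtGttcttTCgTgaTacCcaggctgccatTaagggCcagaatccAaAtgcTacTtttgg
Tox2: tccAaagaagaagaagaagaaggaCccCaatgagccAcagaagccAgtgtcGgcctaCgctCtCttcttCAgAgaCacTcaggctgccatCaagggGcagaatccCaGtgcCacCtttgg
In this window 100 of 120 bases (83.3%) were the same. Where the 5′ reads of these libraries fall on either mRNA was not examined.

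Of 1551 anti-IL-2 and 1688 tacrolimus cells in the files, 1238 and 1475 had at least 200 detected genes and were kept. The anti-IL-2 values had been batch-integrated by the authors, and UMIs (counted molecules) were recovered from them. Cells were clustered without Tox, Tox2, Pdcd1, Tcf7 and Cxcr5. Clusters were called CD4 or CD8 by whether more of their cells had Cd4 or Cd8b1 UMIs, which gave 359 anti-IL-2 and 352 tacrolimus CD4 cells and 805 and 1063 CD8 cells. Cd8b1 was in 96.1% and 95.7% of the CD8 cells and Cd4 in 90.3% and 86.9% of the CD4 cells. Clusters 0 and 13, which were called CD8, had more markers of another lineage (Itgax and Klrb1c, and Car2) than of CD8 cells among their 10 leading genes. Values are therefore also given cluster by cluster and by coreceptor detection alone. Median depth was 9614 and 11156 UMIs in CD4 cells and 14382 and 14459 in CD8 cells, and 4 cell barcodes occurred in both libraries. A level is the percentage of cells in which a gene had 1 UMI or more. Intervals are 95% exact binomial (Clopper-Pearson) intervals that cover counting error only, and a fold is a ratio of shares with cells of both libraries thinned to matched depth.

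Tox was found in most anti-IL-2 T cells and in a minority of tacrolimus T cells. Among CD8 cells 657 of 805 cells under anti-IL-2 had it (81.6%, 78.8 to 84.2%), and 356 of 1063 under tacrolimus (33.5%, 30.7 to 36.4%). Among CD4 cells it was in 218 of 359 (60.7%, 55.5 to 65.8%) and 123 of 352 (34.9%, 29.97 to 40.2%). The intervals of the libraries did not overlap in either class. Within the anti-IL-2 library the CD8 share lay above the CD4 share, with intervals apart. In the tacrolimus library the shares of the classes had overlapping intervals. These shares are not matched for depth, and CD8 cells were deeper in both libraries. At 6000 UMIs per cell, anti-IL-2 non-dividing cells (defined below) had Tox in 61.1% of CD8 and 48.4% of CD4 cells, with intervals just apart. Dividing cells had 50.5% and 40.4%, with overlapping intervals. Tacrolimus non-dividing cells had the other order, 11.3% of CD8 and 27.2% of CD4 cells, with intervals apart. Dividing ones had 18.0% and 19.35%, with overlapping intervals. At matched depth of the libraries, their ratio was 2.45 in CD8 cells (2.15 to 2.80) and 1.86 in CD4 cells (1.48 to 2.35). These intervals are too wide for a gene found in most cells. With the estimated integration shift left in the anti-IL-2 values, the log2 ratio in CD8 cells was 0.63 in place of 1.30.

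Tox2 was in fewer cells than Tox in every group, and its shares in the libraries lay further apart as a ratio. Of CD8 cells, 185 of 805 under anti-IL-2 (23.0%, 20.1 to 26.1%) and 27 of 1063 under tacrolimus (2.54%, 1.68 to 3.67%) had it. Among CD4 cells it was in 132 of 359 (36.8%, 31.8 to 42.0%) and 21 of 352 (5.97%, 3.73 to 8.98%). Tox2 therefore had its higher share in CD4 cells in both libraries, with the intervals of the classes apart in each. This order did not hold without the clusters that were mostly of 1 library (7, 8 and 19). The shares, at matched depth of the libraries, were then 16.4% of CD4 and 19.3% of CD8 cells under anti-IL-2. Under tacrolimus they were 2.3% and 2.5%. The depth-matched ratios were 8.86 (5.88 to 13.8) in CD8 cells and 6.62 (4.09 to 11.3) in CD4 cells. With the 308 repeated anti-IL-2 columns of the tacrolimus file counted as tacrolimus cells, the log2 ratio in CD8 cells was 2.22 in place of 3.15.

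The shares of cells of other lineages set the background. In 54 cells of clusters led by B, plasma or erythroid genes (17 and 18), Tox was in 1 cell (1.85%, at most 9.89%) and Tox2 in 3 cells (5.56%, at most 15.4%). The median depth of these cells was 10799 UMIs. In their tacrolimus part, 24 cells with a median of 16012 UMIs, Tox was in 0 and Tox2 in 2 (8.33%). A count of 0 of 24 allows up to 12.5% of cells with a UMI, taken here and below as 3 counts of the total. Cluster 15, the other cluster outside the T-cell classes (80 cells, led by Vcam1, Sirpa and Siglece), had higher shares, with Tox in 21.2% (12.9 to 31.8%) and Tox2 in 13.8% (7.07 to 23.3%). It also had Cd8b1 in 37.5% of its cells and Pdcd1 in 23.8%, and the part of T-cell RNA in its values was not tested. By library, Tox was in 13 of 44 cells under anti-IL-2 (16.8 to 45.2%) and 4 of 36 under tacrolimus (3.11 to 26.1%). Tox2 was in 9 of the 44 (9.8 to 35.3%) and 2 of the 36 (0.68 to 18.7%). The Tox2 shares of tacrolimus CD4 and CD8 cells lie within or below the intervals of both backgrounds and are not read as expression of the gene in these classes as a whole, so the Tox2 ratios set the anti-IL-2 cells against a level near background. The Tox shares of both classes in each library lay above those of clusters 17 and 18 and of the same library's cells of cluster 15, with intervals apart, but the tacrolimus intervals overlap with that of cluster 15 over both libraries. The Tox2 shares of anti-IL-2 T cells lay above clusters 17 and 18, while their intervals overlap with that of anti-IL-2 cells of cluster 15.

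Both genes passed the size rule, at least 1.5-fold at matched depth for genes in at least 5% of cells of a library, in both classes. Of 906 genes in CD4 cells 12.4% passed it in this direction, and of 933 in CD8 cells 7.72%. Since the pair was chosen for this difference, nothing is read from passing it. In the order of ratios, Tox2 stood at place 11 of 897 genes in CD4 cells and 8 of 927 in CD8 cells, and Tox at places 78 and 31. The median log2 ratio over genes at the minimum share was -0.29 in CD4 and -0.20 in CD8 cells. Relative to it Tox lay at 1.19 and 1.49 and Tox2 at 3.02 and 3.34.

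**Figure D1:**
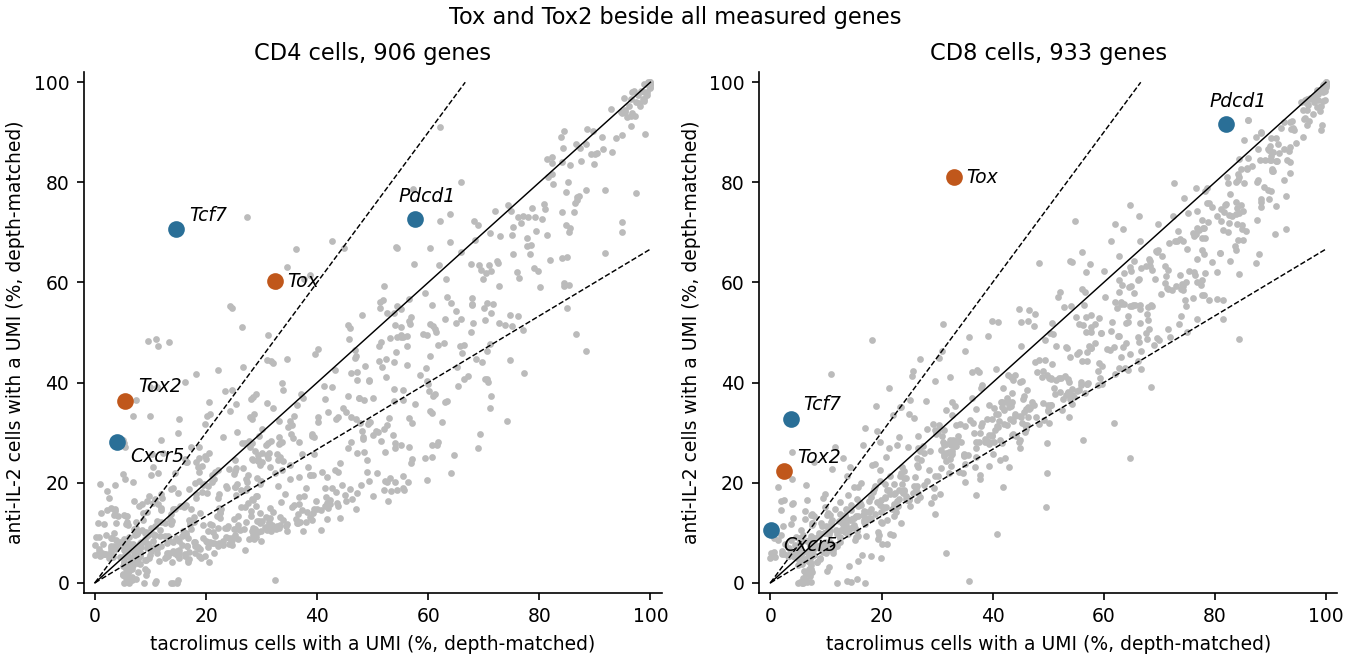
Percentage of tacrolimus (x axis) and anti-IL-2 (y axis) cells in which each gene had a UMI, at matched depth, for CD4 (906 genes) and CD8 (933 genes) cells; the solid line marks equal shares and the dashed lines 1.5-fold. Tox and Tox2 (orange) lie above the upper dashed line in both classes, as do Tcf7 and Cxcr5 (blue), and Pdcd1 (blue) lies between the dashed lines.

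Cells with Tox also held more of it in the anti-IL-2 library. Of Tox-positive CD8 cells 70.5% had 2 or more Tox UMIs in the anti-IL-2 library and 45.2% in the tacrolimus library, with a highest count of 16 and 10 UMIs in a cell. In CD4 cells these shares were 59.2% and 39.0%. Over all UMIs of the CD8 cells, Tox made up 1.37 per 10000 in the anti-IL-2 and 0.381 in the tacrolimus library. Tox2 was mostly a single UMI. Of Tox2-positive CD8 cells 27.6% of 185 and 37.0% of 27 had 2 or more, and of CD4 cells 42.4% of 132 and 28.6% of 21. Counts above 1 UMI in the anti-IL-2 library rest on the estimated integration shift and are less certain than detection.

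The share of cells with Tox rose with sequencing depth. Cells of each class and library were ranked by UMI total and divided into 4 depth strata. In tacrolimus CD8 cells Tox rose from 34 of 266 cells (12.8%) in the shallowest stratum to 151 of 265 (57.0%) in the deepest. In anti-IL-2 CD8 cells it went from 138 of 202 (68.3%, 61.4 to 74.7%) to 92.5%. The shallowest anti-IL-2 stratum (median 7434 UMIs) thus had a higher share than the deepest tacrolimus stratum (median 26329 UMIs, 50.8 to 63.0%), with intervals that overlap. In CD4 cells the corresponding shares were 44.4% and 73.0% in the anti-IL-2 library and 28.4% and 44 of 88 cells in the tacrolimus library. In CD8 cells Tox2 climbed as well, from 13.86% to 30.9% in the anti-IL-2 and from 0.38% to 4.91% in the tacrolimus library. Its CD4 shares did not climb with depth, at 32.2% in the shallowest and 35.96% in the deepest anti-IL-2 stratum and 7.95% and 4.55% in the tacrolimus strata.

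**Figure D2:**
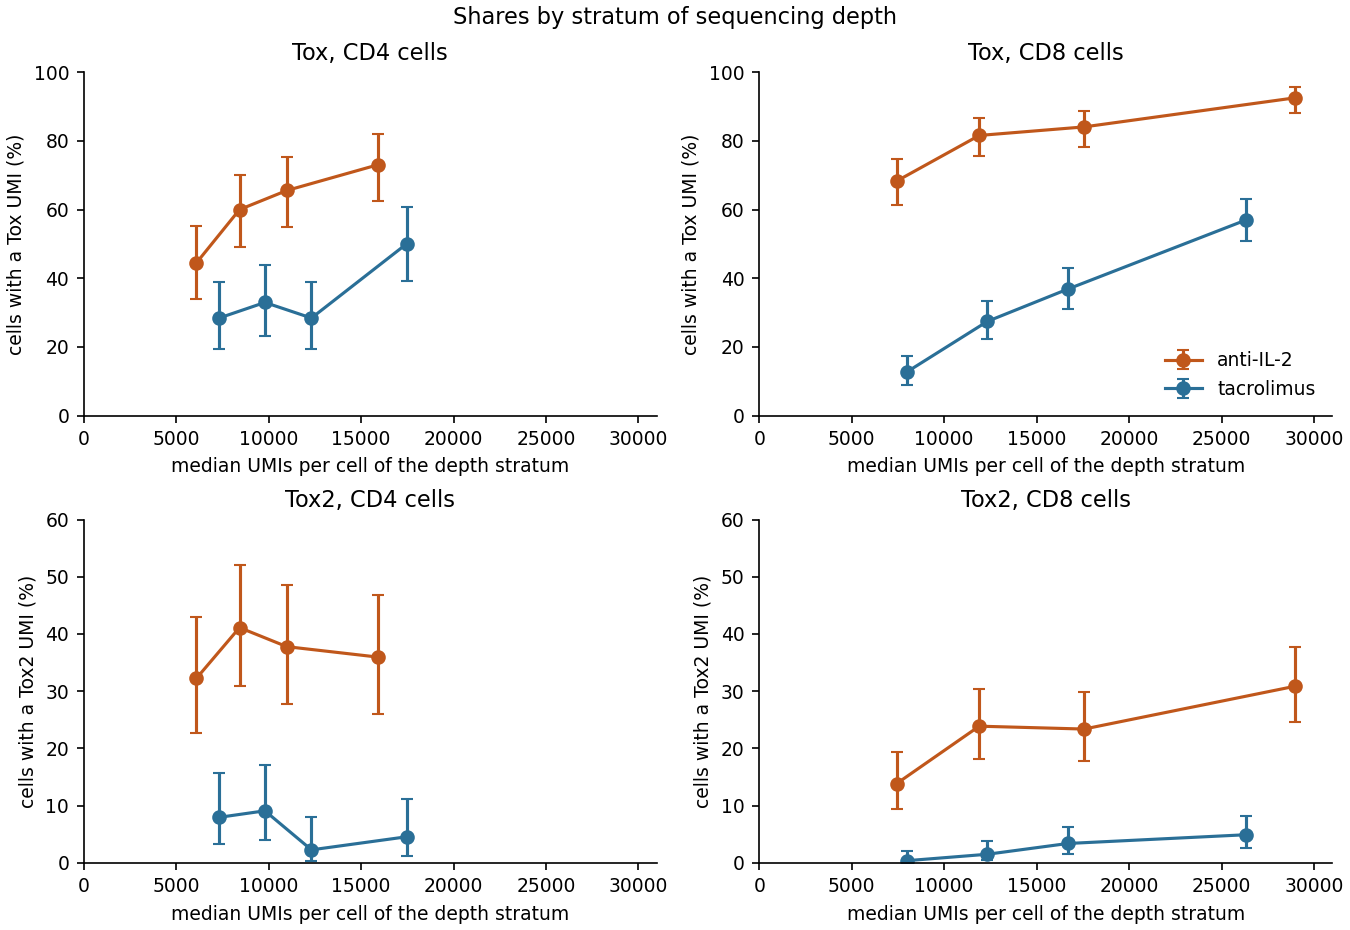
Percentage of cells with a Tox (top) or Tox2 (bottom) UMI against the median UMI total of 4 depth strata of each class and library, with 95% exact binomial intervals. Each anti-IL-2 point (orange) lies above the tacrolimus point (blue) of the same stratum, and Tox in CD8 cells climbs with depth from 12.8% to 57.0% in the tacrolimus library.

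Splitting each class into dividing cells (UMIs of at least 2 of Mki67, Ccna2, Cdk1 and Aurkb) and non-dividing cells gave 8 groups. For Tox the order began with anti-IL-2 CD8 cells, at 82.5% of 464 dividing and 80.4% of 341 non-dividing cells. Anti-IL-2 CD4 cells followed, at 63.2% of 76 dividing and 60.1% of 283 non-dividing cells. Tacrolimus dividing CD8 (37.7% of 849), non-dividing CD4 (36.8% of 144) and dividing CD4 cells (33.7% of 208) came next. Tacrolimus non-dividing CD8 cells were lowest, with Tox in 36 of 214 (16.8%, 12.07 to 22.5%). Neighbours within each of these sets had overlapping intervals, and the 4 sets were apart from each other. Depth differed between the groups, from a median of 8725 UMIs in tacrolimus non-dividing CD4 cells to 19030 in anti-IL-2 dividing CD8 cells.

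The order of Tox2 was different. Anti-IL-2 non-dividing CD4 cells were highest, with 116 of 283 (41.0%, 35.2 to 47.0%). The other anti-IL-2 groups followed with overlapping intervals, at 24.9% of non-dividing CD8, 21.6% of dividing CD8 and 21.1% of dividing CD4 cells. Among tacrolimus cells, non-dividing CD4 cells had Tox2 in 16 of 144 (11.1%, 6.49 to 17.4%). Dividing CD8 (24 of 849, 2.83%), dividing CD4 (5 of 208, 2.40%) and non-dividing CD8 cells (3 of 214, 1.40%) had lower shares with overlapping intervals. The interval of tacrolimus non-dividing CD4 cells overlapped with that of anti-IL-2 dividing CD4 cells (12.5 to 31.9%) and was apart from that of dividing CD8 cells below it.

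**Figure D3:**
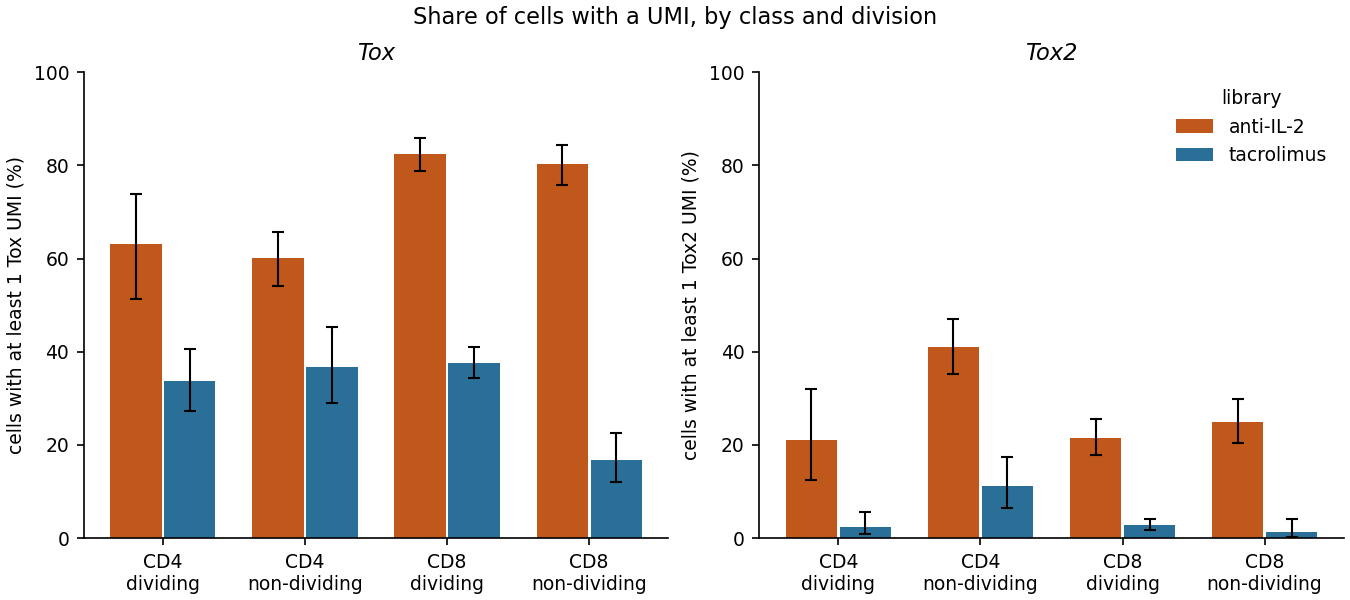
Percentage of cells with a Tox (left) or Tox2 (right) UMI, as read without thinning, in dividing and non-dividing CD4 and CD8 cells; bars are libraries (anti-IL-2 orange, tacrolimus blue) and error bars 95% exact binomial intervals. Each anti-IL-2 bar is higher than the tacrolimus bar beside it, and the lowest Tox bar is tacrolimus non-dividing CD8 cells at 16.8%.

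At matched depth the intervals of the ratio lay above 1 in all 4 groups, for both genes. By the size rule 6.56% of all genes lay higher under anti-IL-2 in dividing CD4, 13.1% in non-dividing CD4, 5.87% in dividing CD8 and 10.7% in non-dividing CD8 cells. The Tox ratio was 4.41 in non-dividing CD8 cells (3.1 to 6.44), 2.17 in dividing CD8 cells (1.86 to 2.53), 1.66 in non-dividing CD4 cells (1.21 to 2.32) and 1.76 in dividing CD4 cells (1.18 to 2.59). The tacrolimus share in non-dividing CD8 cells, 16.8% (12.05 to 22.5%), overlaps with that of tacrolimus cells of cluster 15 (3.11 to 26.1%). It also overlaps with the 12.5% allowed in those of clusters 17 and 18, though over both libraries these had at most 9.89%. The ratio of 4.41 thus sets anti-IL-2 cells against a share not clearly above background. For Tox2 the ratio was 14.8 in non-dividing CD8 cells, where the tacrolimus share came from 3 cells and the interval ran from 4.85 to 73.3. It was 7.0 in dividing CD8 cells (4.41 to 11.5), 3.69 in non-dividing CD4 cells (2.17 to 6.69) and 7.47 in dividing CD4 cells (2.48 to 27.3).

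Dividing and non-dividing cells of a library differ in depth, so they were also set side by side at 6000 UMIs per cell, without shallower cells. In the tacrolimus library 18.0% of 823 dividing CD8 cells (15.4 to 20.8%) had Tox, against 11.3% of 196 non-dividing cells (7.2 to 16.5%), with overlapping intervals. In the anti-IL-2 library the order was the other way, with 50.5% of 429 dividing (45.6 to 55.3%) and 61.1% of 317 non-dividing CD8 cells (55.5 to 66.5%), with intervals just apart. Left out as too shallow were 26 and 18 tacrolimus and 35 and 24 anti-IL-2 cells. Without thinning the anti-IL-2 shares were 82.5% and 80.4%, so that order depended on the thinning, and with the integration shift left in the difference was -0.7 points in place of -10.6. Leaving out the clusters that were mostly of 1 library made this anti-IL-2 CD8 difference -3.7 points. In CD4 cells Tox2 was in 31.6% of 246 non-dividing and 9.42% of 71 dividing anti-IL-2 cells, and in 9.08% and 1.07% of tacrolimus cells, where both tacrolimus values lie within or below the background intervals. Without the clusters that were mostly of 1 library (7, 8 and 19), these Tox2 differences of dividing minus non-dividing CD4 cells, -22.1 and -8.0 points, were -0.5 and -0.1. Tox in CD4 cells had overlapping intervals between dividing and non-dividing cells in both libraries.

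Within the clusters, which had been formed without either gene, the anti-IL-2 cells had the higher share throughout. This held at matched depth in all 5 CD4 and all 11 CD8 clusters with at least 20 cells of each library, for Tox and for Tox2. For Tox the intervals were apart in 11 of 11 CD8 clusters but in 1 of 5 CD4 clusters (12, led by Cd4, Cd40lg and Gpr15). For Tox2 they were apart in 7 of 11 CD8 and 2 of 5 CD4 clusters (7 and 16). The Tox shares of CD8 clusters ranged from 57.0 to 96.9% in anti-IL-2 cells and from 13.5 to 61.9% in tacrolimus cells. The highest values of both libraries were in cluster 4, a cluster of deep cells (median 25687 UMIs at matched depth) led by Utf1 and Bcat1.

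Cluster 0, largely of non-dividing CD8 cells, had Tox in 68.8% of 103 cells under anti-IL-2 and 13.5% of 118 under tacrolimus. Tox2 was in 13.3% and in 0 of 118, so that up to 2.54% is allowed. Cluster 8, whose leading genes include the lymph-node homing receptor gene Ccr7 with Tcf7 and Id3, had Tox in 85.1% of 153 and 16.4% of 24 cells. In it Tox2 was in 30.9% and 4.2%. The CD4 cluster 7, led by Il6ra, Cxcr5 and Sostdc1, had the closest Tox shares of the libraries, 66.0% of 159 (58.1 to 73.4%) and 58.6% of 42 cells (42.4 to 73.6%), with overlapping intervals. Tox2 in cluster 7 was in 57.1% (48.98 to 64.9%) and 32.6% (18.9 to 48.8%), the highest tacrolimus share of any cluster tested. Clusters 7 and 8 were mostly of anti-IL-2 cells, so they may be that library and not a type.

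**Figure D4:**
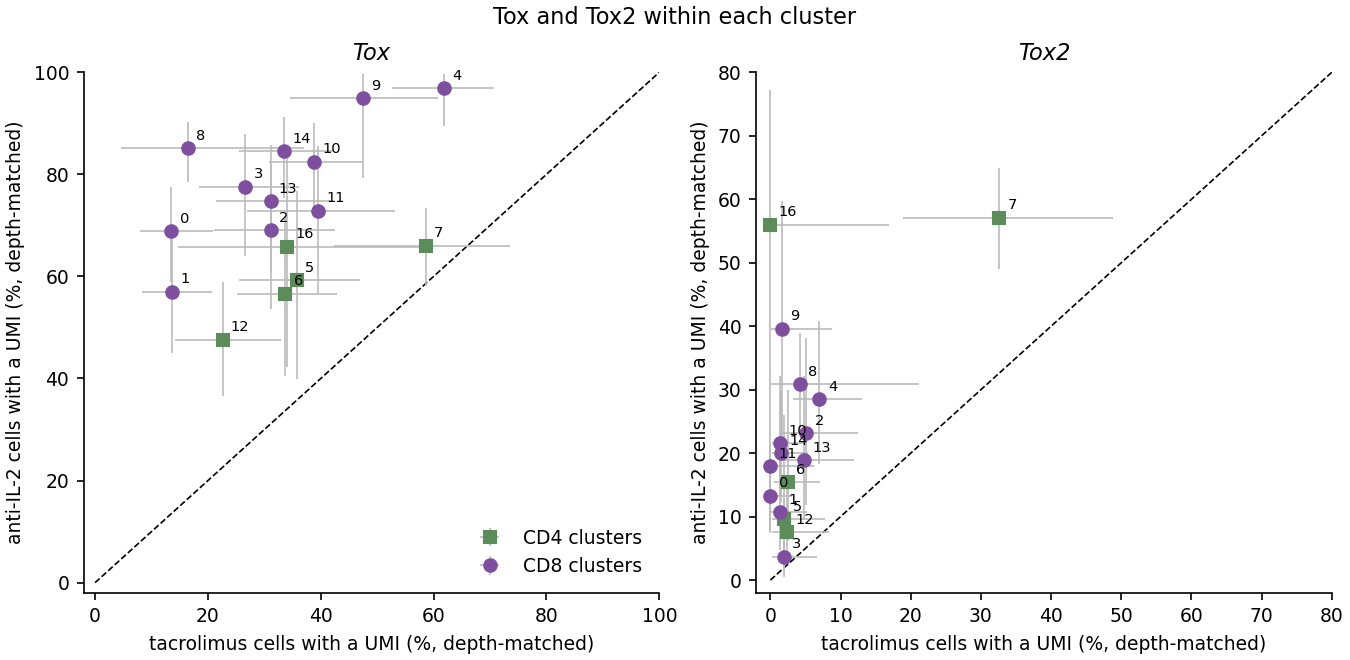
Percentage of the cells of each cluster with a Tox (left) or Tox2 (right) UMI at matched depth, tacrolimus on the x axis and anti-IL-2 on the y axis, with 95% exact binomial intervals; numbers are cluster numbers, squares CD4 and circles CD8 clusters, and the dashed line marks equal shares. All 16 clusters lie above the line for both genes, and cluster 7 is nearest to it for Tox.

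Classes from coreceptor detection alone gave like values. Cells with Cd8a or Cd8b1 but no Cd4 UMI had Tox in 80.2% of 769 under anti-IL-2 and 32.1% of 1006 under tacrolimus, and Tox2 in 22.4% and 2.49%. Cells with Cd4 alone had Tox in 61.8% of 304 and 36.4% of 294 cells, and Tox2 in 37.2% and 5.44%. Cells with UMIs of both coreceptors can be droplets that held 2 cells. Among the CD8 clusters there were 40 and 38 of them, with Tox in 38 and 18. A doublet caller marked 1 anti-IL-2 and 3 tacrolimus cells, which were kept.

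The members often occurred in the same cell. Of anti-IL-2 CD8 cells with Tox2, 168 of 185 (90.8%) also had Tox, against 489 of 620 (78.9%) without Tox2, a difference of 11.9 points (5.9 to 17.0). In tacrolimus CD8 cells 21 of 27 (77.8%) had Tox, against 335 of 1036 (32.3%), a difference of 45.4 points (25.2 to 59.3). In CD4 cells the corresponding shares were 92 of 132 (69.7%) and 126 of 227 (55.5%) under anti-IL-2, and 17 of 21 (81.0%) and 106 of 331 (32.0%) under tacrolimus. Among cells with Tox2, the shares with Tox in the libraries had overlapping intervals in both classes, 85.7 to 94.6% and 57.7 to 91.4% in CD8 cells and 61.1 to 77.4% and 58.1 to 94.6% in CD4 cells. Averaged over the depth strata with at least 5 cells of each kind, the difference was 9.8 points in anti-IL-2 CD8 and 13.3 in anti-IL-2 CD4 cells. In tacrolimus CD4 cells it was 61.1 points, from 2 of 4 strata.

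Pdcd1, which encodes the inhibitory receptor PD-1, had UMIs in 91.8% of CD8 cells under anti-IL-2 and 82.97% under tacrolimus, and in 72.98% and 60.8% of CD4 cells. Tox went with it in both libraries. Averaged over depth strata, Tox was in 84.0% of anti-IL-2 CD8 cells with Pdcd1 and 52.8% without it, and in 35.7% and 20.4% of tacrolimus CD8 cells. In CD4 cells Tox was in 39.9% of tacrolimus cells with and 26.9% without Pdcd1, and in the anti-IL-2 library the difference was 15.8 points. The pooled counts behind the CD8 values were 624 of 739 and 33 of 66 anti-IL-2 cells, and 331 of 882 and 25 of 181 tacrolimus cells. The pooled difference was 34.4 points (21.6 to 47.3) in the anti-IL-2 and 23.7 points (17.0 to 29.4) in the tacrolimus library.

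Tox2 and Pdcd1 occurred together in anti-IL-2 CD8 cells, with Tox2 in 24.2% of cells with and 3.6% of cells without Pdcd1 over depth strata (181 of 739 and 4 of 66 cells). Over anti-IL-2 cells whose UMI total could be read directly this difference of 20.6 points was 1.7. In anti-IL-2 CD4 cells the values were 39.2% and 27.0%, and the interval of the pooled difference of 9.4 points ran from -2.3 to 20.2; with readable totals only, the difference over strata was -3.4 points. In tacrolimus cells the pooled differences, 1.5 points in CD4 (-4.4 to 6.6) and 2.4 in CD8 cells (-0.3 to 3.8), had intervals that include 0.

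Tox2 was in more of the cells with Tcf7, which encodes TCF-1, a factor that keeps T cells in a naive or progenitor state. In anti-IL-2 CD4 cells Tox2 was in 120 of 255 cells with Tcf7 (47.1%) and 12 of 104 without it (11.5%), a difference of 35.5 points (25.6 to 43.9), and of 37.2 points over depth strata (14.9 with the integration shift left in). In anti-IL-2 CD8 cells it was in 94 of 266 (35.3%) and 91 of 539 (16.9%), a difference of 18.5 points (11.8 to 25.3), and of 20.8 over depth strata (11.4 with the shift left in and 11.6 over readable totals). In tacrolimus CD4 cells it was in 15 of 54 (27.8%) and 6 of 298 (2.01%), a difference of 25.8 points (14.2 to 39.7). The share of tacrolimus CD4 cells with Tcf7 (16.5 to 41.6%) lay above that of the B, plasma and erythroid clusters (at most 15.4%) but overlaps with that of cluster 15 (7.07 to 23.3%). In tacrolimus CD8 cells Tox2 was in 6 of 40 with Tcf7 and 21 of 1023 without it (2.05%). Among tacrolimus cells with Cd8a or Cd8b1 and no Cd4 UMI, 1 of 30 with Tcf7 had Tox2, and the difference over depth strata was -0.1 points in place of 11.3. Among those of the CD8 clusters with UMIs of both coreceptors, 3 of 8 with Tcf7 had Tox2.

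Tox was compared in the same way. Over depth strata it was in 87.0% of anti-IL-2 CD8 cells with Tcf7 and 78.8% without it (pooled difference 6.7 points, 0.9 to 12.1), and in 64.8% and 50.4% of CD4 cells (pooled 9.7 points, -2.0 to 21.3). In tacrolimus cells Tox was in 26 of 54 CD4 cells with Tcf7 (48.1%) and 97 of 298 without it (32.6%). In tacrolimus CD8 cells the counts were 20 of 40 and 336 of 1023 (32.8%). Among these CD8 cells those with Tcf7 had a median of 18587 UMIs and the others 14339, and the pooled difference of 17.2 points was 8.1 over depth strata.

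Cells with both Pdcd1 and Tcf7, a pair of genes that together mark progenitors of exhausted T cells and many follicular helper cells, had the highest values of both members in each class and library, in some cases with overlapping intervals. In anti-IL-2 CD8 cells with both, Tox was in 218 of 246 (88.6%) and Tox2 in 93 of 246 (37.8%). With Pdcd1 alone Tox was in 406 of 493 (82.4%) and Tox2 in 88 of 493 (17.9%), and with neither gene Tox was in 22 of 46 (47.8%). In tacrolimus CD8 cells with both Tox was in 18 of 31 (58.1%, 39.1 to 75.5%), with Pdcd1 alone in 313 of 851 (36.8%) and with neither in 23 of 172 (13.4%). The median depths of these tacrolimus groups fell in the same order, 20639, 15118 and 10307 UMIs, and the shares were not averaged over depth strata. In CD4 cells with both, Tox2 was in 92 of 181 anti-IL-2 (50.8%, 43.3 to 58.3%) and 11 of 28 tacrolimus cells (39.3%, 21.5 to 59.4%). With Pdcd1 alone it was in 11 of 81 (13.6%) and 3 of 186 (1.61%). The intervals of the libraries thus overlapped for Tox2 among CD4 cells with both genes but not among those with Pdcd1 alone.

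UMIs of Cxcr5, whose product directs cells to B-cell follicles, were in 102 of 359 CD4 cells under anti-IL-2 and 15 of 352 under tacrolimus. In CD8 cells they were in 87 of 805 and 1 of 1063. Of the CD4 cells with Cxcr5, Tox2 was in 60 of 102 (58.8%) under anti-IL-2, against 72 of 257 (28.0%) without it, a difference of 30.8 points (19.0 to 41.9). Under tacrolimus Tox2 was in 6 of 15 (40.0%), against 15 of 337 (4.45%), a difference of 35.5 points (11.7 to 63.3). In anti-IL-2 CD8 cells Tox2 was in 39 of 87 (44.8%) and 146 of 718 (20.3%), a difference of 24.5 points (13.4 to 35.9). With the integration shift left in, the CD4 difference over depth strata was 15.8 points in place of 30.1, and over readable totals the CD8 difference was 4.8 in place of 23.4.

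For Tox the relation with Cxcr5 differed in size between the libraries. In tacrolimus CD4 cells Tox was in 14 of 15 cells with Cxcr5 (93.3%) and 109 of 337 without it (32.3%), a difference of 61.0 points (35.2 to 69.2). In anti-IL-2 CD4 cells it was in 68 of 102 and 150 of 257 (58.4%), a difference of 8.3 points (-3.4 to 19.3). The difference between these 2 values was not tested. All 15 tacrolimus cells with Cxcr5 were non-dividing. In tacrolimus dividing CD4 cells Cxcr5 was in 0 of 208, so that up to 1.44% of cells with a UMI is allowed. The single tacrolimus CD8 cell with Cxcr5 had both Tox and Tox2.

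**Figure D5:**
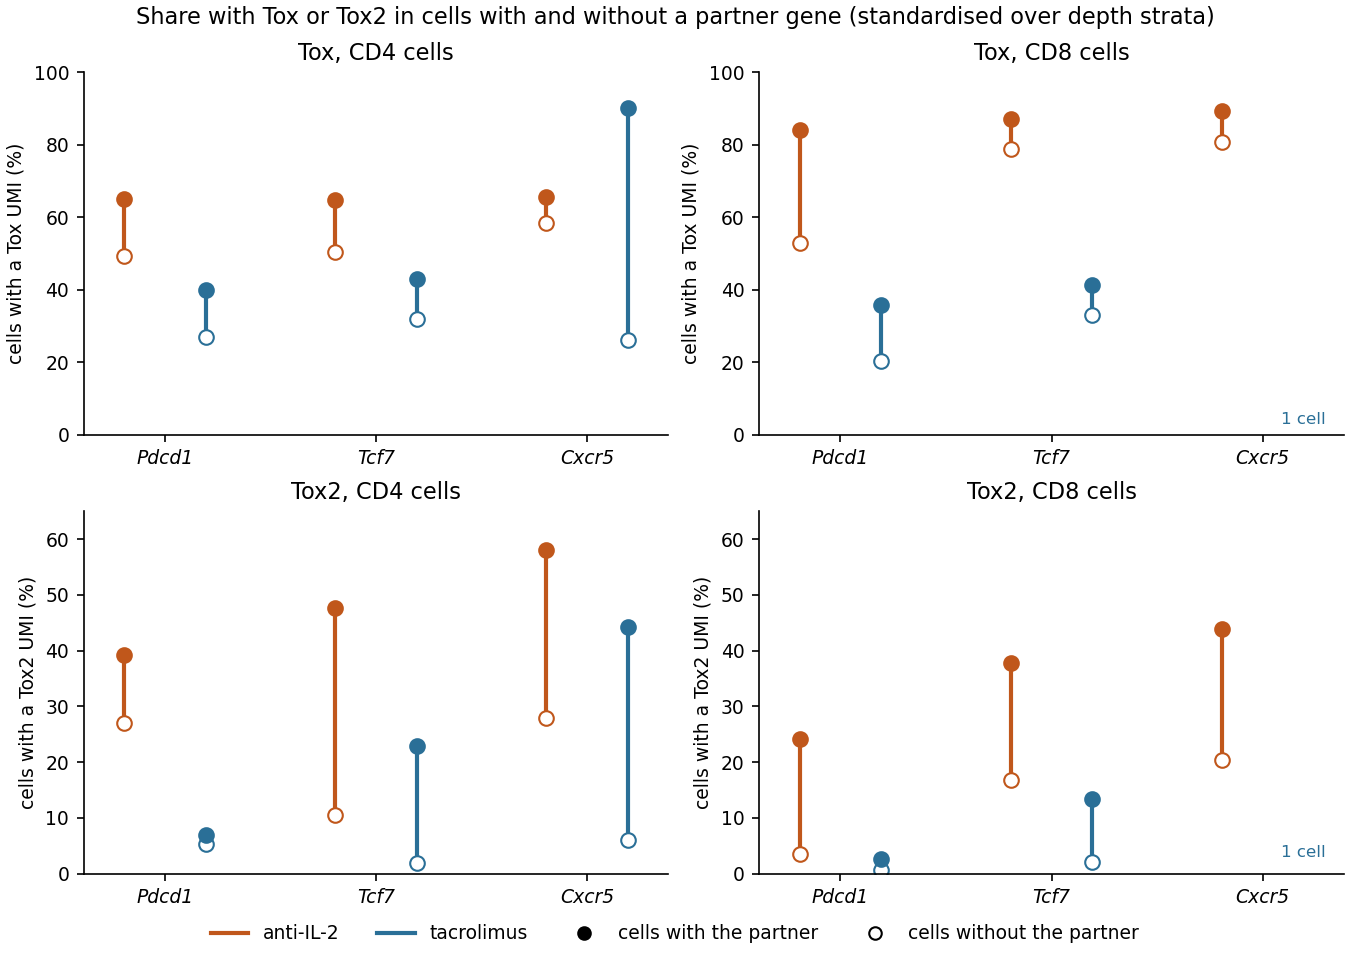
Share of cells with a Tox (top) or Tox2 (bottom) UMI, in percent averaged over depth strata, among cells with (filled) and without (open) a UMI of Pdcd1, Tcf7 or Cxcr5, in CD4 (left) and CD8 (right) cells of the anti-IL-2 (orange) and tacrolimus (blue) libraries. Filled points lie above open ones in each pair. The widest gap is Tox with Cxcr5 in tacrolimus CD4 cells, of which 15 had Cxcr5. In these cells the Cxcr5 pairs of Tox and Tox2 come from 2 of 4 depth strata, those with at least 5 cells of each kind. Cxcr5 in tacrolimus CD8 cells has no pair because 1 cell had it.

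Across all T cells of the tacrolimus library, the genes whose share was furthest above in cells with Tox (479) than without it (936), over depth strata, were Cd200 (by 16.3 points), Ubash3b (16.1), Lag3 (12.3), Rgs16 (12.2), Ccl3 (11.5), Sgol2a (11.5), Ccdc28b (10.9) and Nrp1 (10.9). Lag3 and Cd200 encode immune-regulatory surface proteins, Ubash3b a phosphatase that dampens T-cell receptor signalling, and Ccl3 a chemokine. The anti-IL-2 differences were 16.9 points for Cd200, 15.9 for Ubash3b, 20.2 for Lag3, 10.4 for Rgs16 and 12.6 for Ccl3. Those of Sgol2a, Ccdc28b and Nrp1 were smaller, at 2.2, 5.9 and 7.3 points. Furthest below were Itgax (-15.2), Cd7 (-14.4), Klrg1 (-14.1), a marker of terminal effector cells, and Ctla2a (-12.9). Their anti-IL-2 values were 0.9, 0.8, -3.1 and -4.6 points, so for Itgax and Cd7 the difference was above 0 there.

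For the 48 tacrolimus T cells with Tox2 the leading genes were Tox (by 41.6 points), Tcf7 (35.6), Nsg2, Rgs10 (28.2), Bcl2 (27.9), Id3 (26.3), Tnfsf8 (26.1) and Akr1b8 (24.2). Id3 is a regulator of memory and follicular helper differentiation, Bcl2 encodes an anti-apoptotic protein, and Tnfsf8 the CD30 ligand. In the anti-IL-2 library Tcf7 (32.3 points), Rgs10 (31.5), Nsg2 (25.6), Tnfsf8 (25.1) and Id3 (23.8) held places 2, 3, 4, 5 and 6 of 2000 genes in that order, while Tox (8.3), Bcl2 (12.7) and Akr1b8 (10.6) stood lower. Furthest below in the tacrolimus library were Glrx (-32.7), Gzmb (-30.6), which encodes granzyme B, the kinetochore gene Ndc80 (-28.7) and Serpinb9 (-25.8), an inhibitor of granzyme B. The anti-IL-2 values were -13.7, -17.5, -3.8 and -16.7 points. These cells pool CD4 and CD8 cells, so differences between the classes enter them.

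Over the 8 groups (both libraries, CD4 and CD8, dividing and non-dividing), the genes whose shares followed those of Tox most closely among 1003 genes were Gbp4 (Pearson r 0.910), Tagap (0.909), Actn1 (0.907), Tnfaip3 (0.907) and Ociad2 (0.902). For Tox2 they included Oas1a (0.974), Fam46c (0.956), Sh3bp5 (0.955) and Usp18 (0.954). Oas1a and Usp18 are interferon-stimulated genes, and Tnfaip3 encodes the NF-kB inhibitor A20. Tcf7 (0.951) and Cxcr5 (0.937) stood at places 7 and 11 for Tox2, whereas for Tox r was 0.561 with Tcf7 and 0.503 with Cxcr5. The members correlated with each other at 0.739. The 8 points share 2 libraries and differ in depth, and the values describe likeness only.

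Around the members, genes of the NFAT and NR4A circuit were mixed between passing the size rule upwards and not passing it. Nfatc1, Nfatc2 and Rcan1 of this list were not measured. Of 8 measured genes of the NFAT and NR4A circuit, whose factors are induced by T-cell receptor signals as Tox is, 6 reached the minimum share in CD4 and 5 in CD8 cells. By the size rule, and at matched depth, the anti-IL-2 library had more CD4 cells with Egr1 (12.2% against 7.35%) and Egr2 (5.57% against 1.04%). It had more CD8 cells with Nr4a2 (42.4% against 25.6%) and Egr1 (8.71% against 5.48%). That is 2 of 6 and 2 of 5, beside 12.4% and 7.72% of all genes. The other 4 and 3 were neither, among them Irf4 and Batf. Irf4 was in 9.54% against 7.26% of CD4 cells and 12.8% against 14.8% of CD8 cells. Batf was in 89.1% against 83.8% of CD4 cells and 92.5% against 86.0% of CD8 cells, so Batf could not rise 1.5-fold. Batf and Irf4 encode factors that act together in activated T cells. The median log2 ratio of the list was 0.24 in CD4 and 0.42 in CD8 cells, beside -0.29 and -0.20 for all genes.

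Inhibitory receptor genes went in both directions. Of 7 measured, Cd200 was in more anti-IL-2 cells (38.6% against 24.7% of CD4 and 24.96% against 13.1% of CD8 cells), and Havcr2, which encodes TIM-3, was in fewer (11.98% against 36.3%, and 42.7% against 66.6%), as was Entpd1, which encodes CD39. Pdcd1, Lag3, Ctla4 and Cd160 were neither, though Pdcd1, Lag3 and Cd160 were in too many tacrolimus CD8 cells for a 1.5-fold rise. The share of all genes in more anti-IL-2 cells was 12.4% in CD4 and 7.72% in CD8 cells, and in fewer 37.2% and 12.4%. In each class 1 of 7 receptor genes was in more and 2 of 7 in fewer cells. The CD4 counts lie near or below the shares of all genes, and the CD8 counts rest on few genes. They are no result about the list.

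Stem-like genes were mostly on the same side as Tox2. Of 7 that reached the minimum in CD4 cells 5 passed the rule upwards in the anti-IL-2 library (among them Tcf7, Id3, Cxcr5 and Ccr7) and Myb was in fewer, with a median log2 ratio of 1.86, where 12.4% of all genes passed upwards. Of 8 in CD8 cells 6 were in more, among them those 4 and Xcl1, and Il7r was in fewer (23.1% against 36.9%), with a median of 2.16, where 7.72% of all genes passed upwards. Follicular helper genes in more CD4 cells were Cxcr5, Izumo1r, Il6ra, Tnfsf8 and Sostdc1, 5 of 9 that reached the minimum, again beside 12.4% of all genes. Maf, Il21 and Cd40lg, which such cells also express, were neither, nor was Icos, at 82.3% of tacrolimus cells too frequent to pass. Of terminal effector genes Klrg1 was in fewer CD8 cells (7.79% against 20.98%), 1 of 6, and Prf1 and Id2 in fewer CD4 cells, 2 of 5. These shares are near the 12.4% and 37.2% of all genes and are no result about the list. In CD8 cells most of the list, such as Gzmb in 99.2% of tacrolimus cells, was in too many tacrolimus cells to pass upwards. In CD4 cells this held for Gzmb (84.5%) and Id2 (86.6%) but not for Klrg1, Gzma and Prf1. Tcf7 and Cxcr5 are in these lists and among the partners above, so these counts and the co-detection values are not separate.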

How the data were processed

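Spleen cells were profiled with a droplet-based 5′ kit, 1 library per treatment. Cell Ranger 3.1.0, Seurat and the build mm10 are named in the submitters' processing notes. The authors deposited natural log values of 2000 genes, scaled to a fixed total per cell, and the anti-IL-2 values had also been batch-integrated (13.9% were below 0). The tacrolimus values gave whole UMIs for 100.0% (tolerance 0.001, scale 50000). The 308 anti-IL-2 columns repeated in the tacrolimus file were used once.

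The design had assumed that values could be read as UMIs and that only tacrolimus cells would be thinned. For the anti-IL-2 file, UMIs were instead recovered by estimating the integration shift (rank 60, 30 neighbours, detection above 0.5 of 1 UMI), and cells of both libraries were thinned to matched depth. Totals were readable directly for 374 of 1551 cells, and fitted totals were within 1.25-fold of these for 96.8%. The recovery was also run on simulated integrations (Seurat 5.3.0, R 4.3.3), whose outcomes are not given here. The simulation matched to the real libraries took UMIs recovered from the anti-IL-2 values as its truth. It also set a correction of the fitted totals of cells without a readable total. That simulation is therefore not a separate check of the recovery.

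A minimum of 200 detected genes removed 20.2% of cells in the anti-IL-2 and 12.6% in the tacrolimus library, and the rest were clustered with scanpy 1.11.5 (21 clusters, resolution 1.0). Clusters with Cd4, Cd8a or Cd8b1 in at least 75% of cells were T-cell clusters. Shares and exact intervals were computed with scipy 1.17.1 in Python 3.11.15. Cells are not replicates, so no test was made. Named genes are the members, 3 partners, the members of 5 lists, the 5 genes most like each member over 8 groups, and the 8 higher and 4 lower genes in tacrolimus cells with a member. Some genes that these rules name are not reported here. The members and lists were chosen with earlier results of these data known. Alternatives changed depth matching, detection, shift, cells, classes and strata.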

Additional observations from a re-analysis of the deposited data

Results flagged for a closer look

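Tox in CD8 cells, thinned to 6000 UMIs, differed in direction between the libraries. The share in dividing minus that in non-dividing cells was -10.6 points in the anti-IL-2 and 6.7 points in the tacrolimus library. In the tacrolimus library the intervals of dividing and non-dividing cells overlapped. The anti-IL-2 difference was 2.2 points without thinning and -3.7 points without the clusters that were mostly of 1 library. For Tox2 in CD8 cells at 6000 UMIs the differences were -6.6 and 0.2 points, and both tacrolimus shares lay near background. Without those clusters the anti-IL-2 Tox2 difference was -2.0 points. The difference between the libraries was not tested, since each treatment has 1 library.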

How the results depend on the processing

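No paired analysis was possible because each treatment has 1 library, and for the same reason none could be left out. Of 170 alternative values of 12 log2 ratios between libraries, 162 moved by less than the counting interval of the main value, 8 moved by more and 0 changed sign. For co-detection the counts were 140, 8 and 2 of 150, for dividing minus non-dividing cells 98, 7 and 5 of 110, and for counts of genes past the size rule 46, 6 and 0 of 52. The cause of these moves was not tested. Not every alternative could move a value. Those that change only anti-IL-2 values or totals left the tacrolimus differences of dividing and non-dividing cells as they were. Leaving out clusters 0 and 13, both called CD8, left the CD4 values as they were. Such values are counted among those that moved by less, so these counts overstate how stable the results were.

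With only anti-IL-2 cells whose total is readable, the genes in more cells were 174 (CD4) and 148 (CD8) and those in fewer CD8 cells 261, and the Tox log2 ratio in CD8 cells was 1.54. In that setting the anti-IL-2 differences were -3.4 points for Tox2 with Pdcd1 in CD4 cells (a change of sign), 1.7 for the same pair in CD8 cells, 11.6 for Tox2 with Tcf7 and 4.8 for Tox2 with Cxcr5 in CD8 cells, and -17.9 for dividing cells (Tox, CD8). With the integration shift left in, the Tox log2 ratio was 0.63 in CD8, 0.55 in dividing and 1.08 in non-dividing CD8 cells, and 68 genes were in fewer CD8 cells. The anti-IL-2 differences were then 14.9 (Tox2 with Tcf7, CD4), 15.8 (Tox2 with Cxcr5, CD4) and 11.4 (Tox2 with Tcf7, CD8), and for dividing cells -8.7 (Tox2, CD4) and -0.7 (Tox, CD8).

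Relative to the median of all genes, the Tox log2 ratio in CD8 cells was 1.49 and 65 genes were in fewer CD8 cells. With the tacrolimus file as deposited, the Tox2 log2 ratio was 2.22 in CD8 and 1.68 in non-dividing CD8 cells. Without clusters mostly of 1 library, 71 genes were in more CD4 cells and the Tox2 log2 ratio in non-dividing CD4 cells was 2.75. The dividing differences in CD4 cells were then 0.7 and 0.0 for Tox (both changes of sign) and -0.5 and -0.1 for Tox2, under anti-IL-2 and tacrolimus. Without thinning they were 3.1 (Tox, CD4, anti-IL-2) and 2.2 (Tox, CD8, anti-IL-2), both changes of sign, and 20.9 (Tox) and 1.4 (Tox2) in tacrolimus CD8 cells. At 9000 UMIs, an alternative chosen after seeing the data, the Tox2 value in tacrolimus CD8 cells was -0.7, again a change of sign. Without strata, Tox with Pdcd1 in tacrolimus CD8 cells differed by 23.7 points. With classes from detection alone, Tox2 with Tcf7 in tacrolimus CD8 cells changed sign to -0.1. The alternative of UMIs per 10000 was not run, since no gene of the pair was under its share limit in both libraries in a class.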
